A study of Bos indicus and Bos taurus with 17 samples.

Results

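Milk fat is built partly from fatty acids that the mammary cell takes from blood, and 10 genes of that route were examined in cells captured from cow's milk. They were LPL and VLDLR, which act on lipoprotein lipid, SLC27A1 and SLC27A6, which encode fatty acid transport proteins, FABP3, FABP4 and FABP5, which encode fatty acid binding proteins, ACSL1 and ACSL4, which encode acyl-CoA synthetases, and ACBD3, which encodes a protein with an acyl-CoA binding domain. The genes were chosen by their role and found by name, and all 10 were among the 21631 distinct names of the table. The study compared Kashmiri and Jersey cattle at 3 points of lactation, D15, D90 and D250, each named for its day in milk and standing for early, mid and late lactation. The 6 groups were Kashmiri D15, D90 and D250 with 3 samples each, Jersey D15 and D250 with 3 samples each, and Jersey D90 with 2 samples in the labels. The labels gave each sample a lactation number of 2 or 3 and named no treatment, and no age was given. The study describes repeated sampling of the same cows in each breed, whereas the lactation numbers in the labels differ between days, and the labels do not link samples to cows. The study's text also describes groups of equal size. Its list of read counts, however, repeats a library name, and the repeat has the same count of reads passing quality control as another library. Whether the Jersey D90 value rests on a library besides those labelled therefore cannot be told. All D15 samples were dated to March, all D90 samples to July and all D250 samples to December, so that day in milk and season cannot be told apart. The cells were pulled from milk with beads carrying an antibody to keratin 18, a protein of epithelial cells, so that only cells shed into milk were measured.

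Triglyceride in circulating lipoproteins is split by lipoprotein lipase, and the fatty acids set free cross the cell membrane with the help of transport proteins. Inside the cell they are carried by small fatty acid binding proteins and are coupled to coenzyme A by acyl-CoA synthetases, which makes them available for triglyceride synthesis. In the lactating ruminant gland this route supplies mainly the long-chain fatty acids of milk fat, and FABP3 is known as its abundant binding protein.

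Levels are given in FPKM, read fragments divided by transcript length and by the number mapped, which allows genes to be set side by side. The authors' table gave 1 FPKM value per group, without values for single cows, so neither an error nor a test could be computed, and a difference between groups may rest on 1 cow. The study lists read counts per library, but under names that it does not tie to breed and day, so the depth behind each value is not given. A gene was taken as past the limit when the higher of both groups reached 1 FPKM and the log2 ratio of FPKM + 1 was at least 2 in size, which is a 4-fold difference on that scale and understates the change of low genes. The summed FPKM of all named genes ranged from 490166 in Kashmiri D250 to 969227 in Kashmiri D15. Rescaling FPKM to an equal sum, milk protein genes left out, moved the median log2 ratio over all genes from -0.04 to 0.81 for Kashmiri D250 over D15, from 0.03 to 0.63 for Kashmiri D250 over D90 and from -0.10 to -0.74 for Jersey over Kashmiri at D250. Among the 90 ratios of the 10 genes, 11 changed sign under that scaling and 3 under scaling by the upper quartile, and these are named with the genes concerned.

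The samples were labelled milk epithelial cells, and epithelial markers were present in all groups. Of the 14 epithelial markers, 13 were found, all at 1 FPKM or more in every group except ESRP1 in Jersey D90, and their summed FPKM was 8691, 1159 and 4472 in Kashmiri and 3487, 329 and 2561 in Jersey at D15, D90 and D250. KRT19, XDH and ELF5 had the highest levels, and KRT18, the target of the capture antibody, ran from 1.59 in Jersey D90 to 51.3 in Kashmiri D15. The study checked purity at D90 by quantitative PCR, setting the captured cells against all somatic cells of the milk. KRT18 and CSN2 were higher and LSP1, HBA and CD18 lower in the captured cells, and the paper proposes minimal contamination by other types. In the deposited values, markers of white blood cells were present as well. The 8 neutrophil markers found of 12 summed to 179, 494 and 613 in Kashmiri and to 4787, 5364 and 13470.0 in Jersey, led by S100A12, S100A8 and S100A9. The 12 macrophage markers summed to 143, 534 and 539 in Kashmiri and to 1265, 2412 and 2897 in Jersey, led by CD68, CD14 and ADGRE1. The 11 T and NK cell markers found of 12 were led by CD3E, CD3D and CD5 and summed highest in Kashmiri D90, at 1719, against 108 to 432 in the other groups. The 8 B cell markers, led by CD79A, CD79B and MS4A1, summed to 9.28 to 83.5. Red blood cell markers (4 found of 7, AHSP the highest by mean) summed to under 1 FPKM in every group. HBB and ALAS2 were listed at 0 in 3 groups each, and AHSP in Jersey D250. The 6 adipocyte markers found of 7 summed to 1.82 to 5.87, most of it LIPE, with ADIPOQ near 0 and LEP listed at 0 in 5 groups and CIDEC in Kashmiri D15. The 7 endothelial markers found of 8 summed to 3.91 to 23.4, mostly VWF and PECAM1 except in Kashmiri D15, where TIE1 was the highest at 2.99, with CDH5 listed at 0 in Kashmiri D15 and D90 and CLDN5 in Jersey D250. In such bulk samples, fewer cells of a type and less RNA per cell cannot be told apart.

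**Figure D1:**
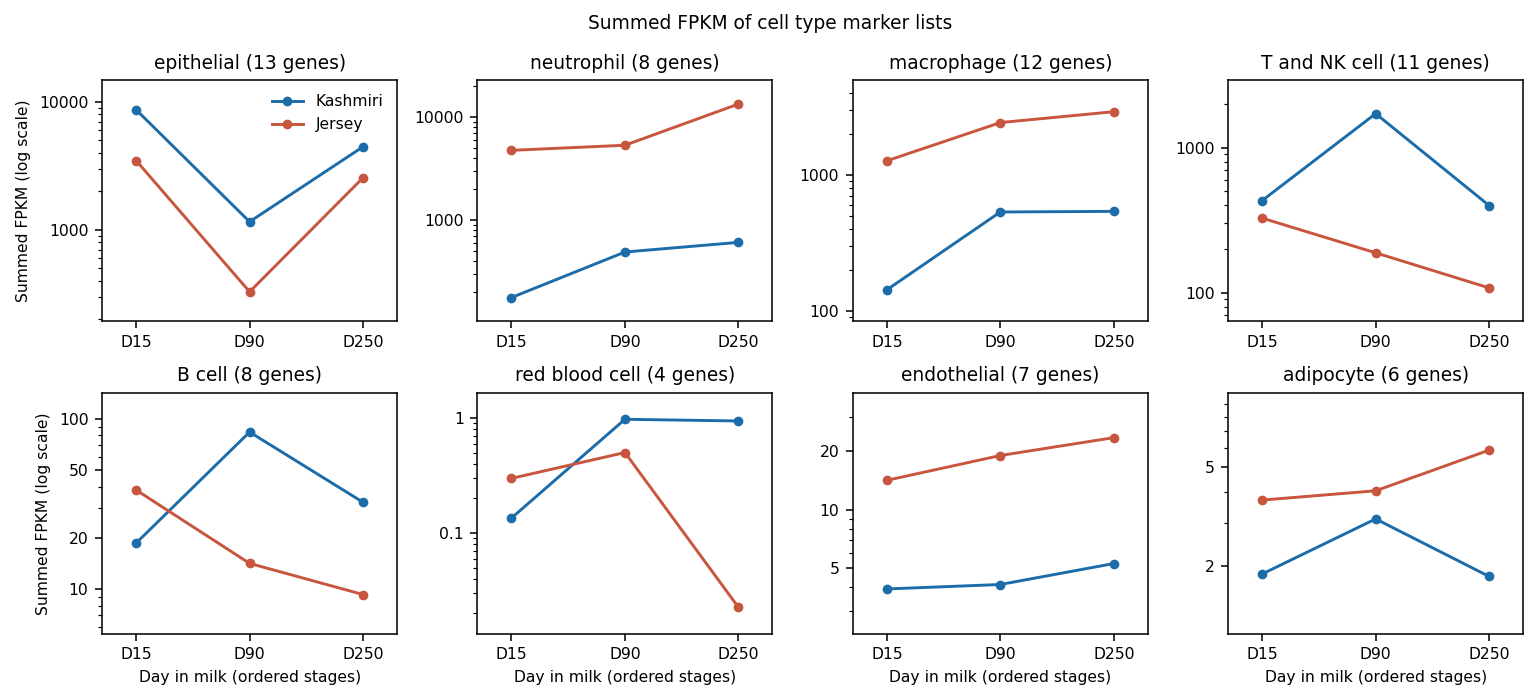
Summed FPKM (log axis) of the 8 cell type marker lists against day in milk, with 1 point per breed and day, no error bars, and the number of genes found in each title. The epithelial sum was lowest at D90 in both breeds (1159 in Kashmiri, 329 in Jersey), and the neutrophil and macrophage sums lay higher in Jersey on all 3 days.

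The genes covered a wide range of levels and of change. FABP3 was the highest of the 10 in 5 of the 6 groups, and it reached 10560.5 FPKM in Kashmiri D15. The highest group exceeded the lowest by 734-fold for SLC27A6, 64.3-fold for FABP3, 33.3-fold for FABP5, 22.4-fold for ACSL4 and 18.0-fold for FABP4. The span of SLC27A6 rests on a lowest value of 0.0668 FPKM, in Jersey D90, and its size is therefore uncertain. VLDLR and LPL spanned 8.70-fold and 8.12-fold, while ACSL1, SLC27A1 and ACBD3 spanned 2.54-fold, 2.12-fold and 1.64-fold.

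**Figure D2:**
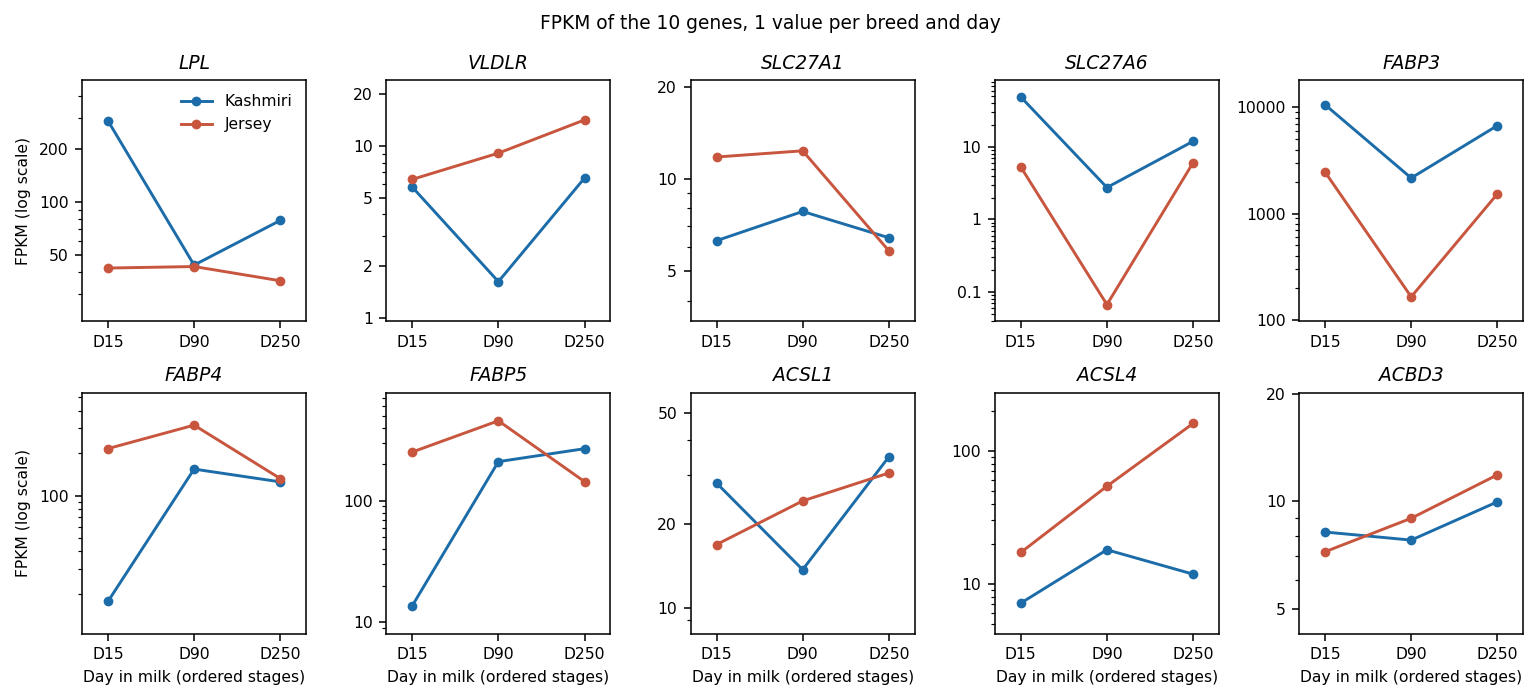
FPKM (log axis, its range set per gene) of each of the 10 genes against day in milk, with 1 point per breed and day and no error bars, since the table holds 1 value per group. SLC27A6 and FABP3 were lowest at D90 in both breeds, FABP4 and FABP5 had their lowest value in Kashmiri D15, and ACSL4 was highest in Jersey D250.

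LPL encodes lipoprotein lipase, which releases fatty acids from circulating triglyceride and is also known from macrophages. At D15, D90 and D250 it stood at 289.7, 43.8 and 78.6 FPKM in Kashmiri cattle. The Jersey values on the same days were 42.2, 43.0 and 35.7. Kashmiri D15 was the single high group: its level was 6.61-fold above Kashmiri D90 (log2 ratio -2.70 for D90 over D15) and 6.87-fold above Jersey D15 (log2 ratio -2.75 for Jersey over Kashmiri). The 3 Jersey values lay within 1.20-fold of each other. At D90 the breeds differed by under 1 FPKM, and the sign of that small difference changed when FPKM was rescaled to an equal sum. Set against the summed epithelial markers, LPL amounted to 3.33, 3.78 and 1.76 FPKM per 100 FPKM in Kashmiri and to 1.21, 13.1 and 1.39 in Jersey, so that on this base the high group was Jersey D90. The macrophage marker sum was lowest in Kashmiri D15, where LPL was highest.

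VLDLR encodes a receptor that binds triglyceride-rich lipoprotein particles. Its level was 5.76, 1.63 and 6.50 FPKM in Kashmiri and 6.38, 9.07 and 14.1 in Jersey at D15, D90 and D250. Kashmiri D90 was the low group, 3.54-fold below D15, whereas the Jersey values were higher on each later day. At D90 VLDLR was 5.58-fold higher in Jersey than in Kashmiri, with a log2 ratio of 1.94, just inside the limit. LPL exceeded VLDLR in every group, by 50.3-fold in Kashmiri D15 and by 2.52-fold in Jersey D250.

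SLC27A6 encodes fatty acid transport protein 6 of the plasma membrane. It measured 49.1, 2.76 and 11.99 FPKM in Kashmiri at D15, D90 and D250. In Jersey it measured 5.30, 0.0668 and 6.07. D90 was the low day in both breeds, and Jersey D90 lay under 1 FPKM, which leaves its ratios sensitive to the pseudocount. The plain ratio of D15 to D90 was 17.8 in Kashmiri and 79.3 in Jersey, and the log2 ratios of D90 over D15 were -3.73 and -2.56. At D250 the Jersey level was 90.8-fold that of D90 (log2 ratio 2.73), and the Kashmiri level 4.34-fold (log2 ratio 1.79). The study, which tested its libraries with Cuffdiff, lists SLC27A6 as differentially expressed in Jersey for D15 against D90 and for D90 against D250. The study's list of differentially expressed milk candidate genes also holds LPL, VLDLR, FABP3 and ACSL1, with fold changes and without p-values. For SLC27A6, Kashmiri exceeded Jersey 9.26-fold at D15, 41.3-fold at D90 and 1.98-fold at D250. The epithelial marker sum was also lowest at D90 in both breeds, and per 100 FPKM of that sum SLC27A6 was 0.564, 0.238 and 0.268 in Kashmiri and 0.152, 0.0203 and 0.237 in Jersey. The Jersey D90 value was thus the lowest on this base too.

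SLC27A1 encodes fatty acid transport protein 1, best known from muscle and adipose tissue. Its level was 6.28, 7.82 and 6.42 FPKM in Kashmiri and 11.8, 12.3 and 5.82 in Jersey. All log2 ratios of SLC27A1 were under 1 in size. Of the small differences, that of Kashmiri D250 over D90 (log2 ratio -0.25) changed sign when FPKM was rescaled to an equal sum. SLC27A6 was 7.81-fold above SLC27A1 in Kashmiri D15 and 1.87-fold above it in Kashmiri D250. In Jersey D90 the order was turned, with SLC27A1 185-fold above SLC27A6, and in Jersey D250 the pair stood within 1.04-fold.

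FABP3 encodes the heart-type fatty acid binding protein. Its FPKM in Kashmiri was 10560.5, 2159 and 6720.5 in order of day. The Jersey values were 2454, 164 and 1529. The dip at D90 was 4.89-fold in Kashmiri (log2 ratio -2.29) and 14.9-fold in Jersey (log2 ratio -3.89), and D250 stood 3.11-fold and 9.31-fold above D90. Among all names ordered by level, FABP3 held place 12, 86 and 3 in Kashmiri and place 57, 595 and 87 in Jersey. For Kashmiri D250 the study's list of top genes puts the caseins, LGB, LALBA and RPLP1 above this FABP3 level. That is more names than place 3 leaves room for, so these places hold for the deposited values only and may be too high. Kashmiri exceeded Jersey 4.30-fold at D15, 13.1-fold at D90 and 4.39-fold at D250, past the limit on all 3 days in the deposited FPKM and at D15 inside it (log2 ratio -1.71) when FPKM was rescaled to an equal sum. The D250 level was below the D15 level by 1.57-fold in Kashmiri and 1.60-fold in Jersey. The Kashmiri one of these (log2 ratio -0.65) became 0.36 when FPKM was rescaled to an equal sum.

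The epithelial markers moved with FABP3. Of the 13 found, 13 were lower at D90 than at D15 in each breed, and the median of their log2 ratios was -2.37 for Kashmiri and -3.72 for Jersey. Per 100 FPKM of the epithelial marker sum, FABP3 was 122, 186 and 150.3 in Kashmiri and 70.4, 49.98 and 59.7 in Jersey. On this base the D90 value was the highest of the 3 days in Kashmiri and the lowest in Jersey, the days of a breed lay closer together than in FPKM, and Kashmiri remained above Jersey on all 3 days. The 6 values spanned 3.73-fold, against 64.3-fold in FPKM. From Jersey D15 to D90, KRT19 fell from 1687 to 38.2 FPKM and ELF5 from 338 to 12.6, both more steeply than FABP3. XDH fell less, from 562 to 205, and made up most of the Jersey D90 sum. At D15 the gap between Kashmiri and Jersey was wider than that of FABP3 for ELF5 (1799 and 338). It was narrower for KRT19 (3195 and 1687). The order of days and of breeds on this base thus depends on the markers summed.

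FABP4 encodes the adipocyte fatty acid binding protein, also known from macrophages and capillary endothelium. Its FPKM was 17.6, 154 and 125 in Kashmiri on these 3 days. In Jersey it was 216, 317 and 132. Kashmiri D15 was the single low group, 8.75-fold below Kashmiri D90 (log2 ratio of D90 over D15 3.06), 7.10-fold below Kashmiri D250 (2.76) and 12.2-fold below Jersey D15 (log2 ratio of Jersey over Kashmiri 3.54). At D250 the breeds were within 1.06-fold, and which one was higher changed under both rescalings. The small difference of Kashmiri D250 from D90 (log2 ratio -0.30) also changed sign when FPKM was rescaled to an equal sum.

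FABP5 encodes the epidermal fatty acid binding protein. It measured 13.7, 210.3 and 269 FPKM in Kashmiri and 252, 456 and 144 in Jersey. Kashmiri D15 was again the low group, 15.3-fold below D90 (log2 ratio 3.85), 19.6-fold below D250 (4.20) and 18.4-fold below Jersey D15 (4.11). In Jersey the order was different, with D250 3.17-fold below D90 (log2 ratio -1.66). FABP5 had 2 entries in the table, and the one used was the higher. The other stood between 0.079 and 0.75 FPKM in all groups, and how reads were divided between them is not given in the sources used here.

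Levels of FABP4 and FABP5 stood close to each other in every group, within 1.09-fold to 2.15-fold, and over the 6 group values of log2(FPKM + 1) their Pearson r was 0.976. This is a description of 6 values that share their libraries with all other genes. By the same measure FABP3 had an r of 0.93 with SLC27A6 and of -0.75 with FABP4, and LPL had an r of -0.92 with FABP4. The macrophage marker sum was lowest in Kashmiri D15, as were FABP4 and FABP5. Of the macrophage markers, 10 of 10 considered were higher at D90 than at D15 in Kashmiri (median log2 ratio 1.38). Per 100 FPKM of the macrophage marker sum, FABP4 was 12.3, 28.9 and 23.2 in Kashmiri and 17.1, 13.1 and 4.56 in Jersey. FABP5 was 9.55, 39.4 and 49.9 in Kashmiri and 19.9, 18.9 and 4.97 in Jersey. The low group on this base was Jersey D250 for both genes. The markers of the list did not move alike there: from Jersey D15 to D250, CD68 went from 169 to 996 FPKM and ADGRE1 from 54.1 to 909, whereas C1QA went from 145 to 12.01, C1QB from 98.2 to 10.4 and C1QC from 144 to 6.80, and the median of the 12 from 83.4 to 39.8. Adipocyte and endothelial markers, the other types known for FABP4, were low in all groups, and the part of any cell type in these levels was not tested.

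**Figure D3:**
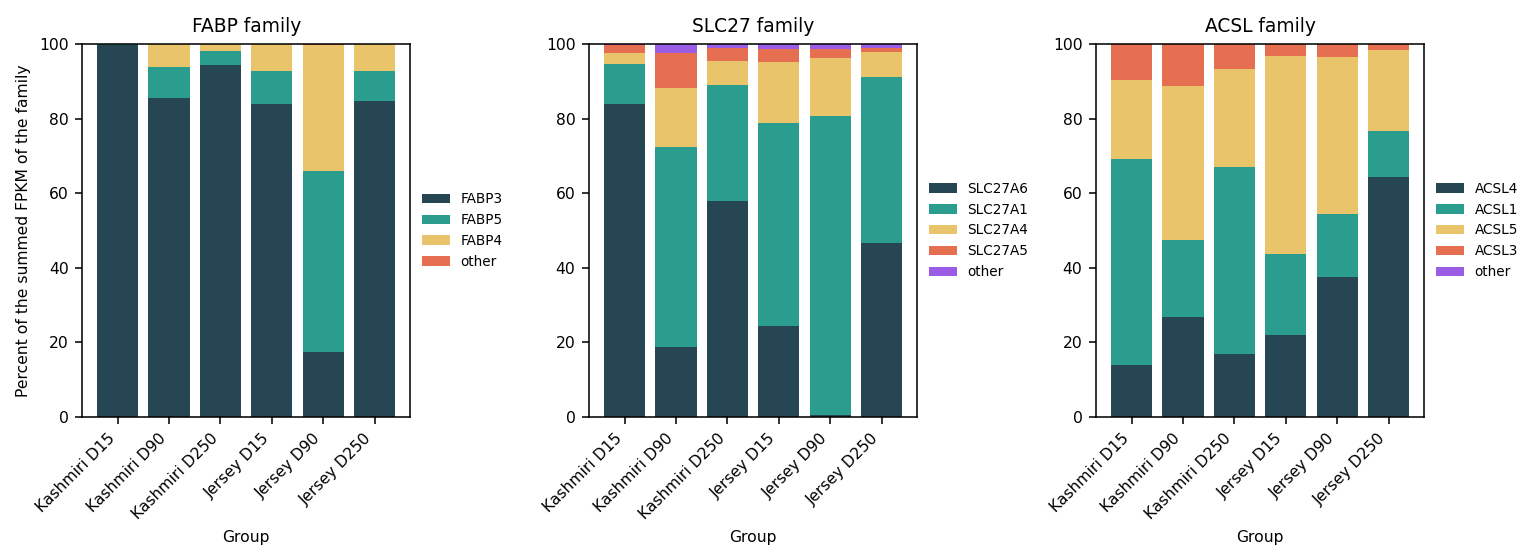
Share (percent) of each gene in the summed FPKM of the FABP (10 genes), SLC27 (6 genes) and ACSL (4 genes) families, as stacked bars for the 6 groups; genes that never reached 2% are pooled as other. FABP3 made up 99.7% of its family in Kashmiri D15 and 17.5% in Jersey D90, and ACSL4 made up 64.4% of its family in Jersey D250.

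The make-up of the families differed between groups. FABP3 made up 99.7%, 85.4% and 94.4% of the summed FPKM of the FABP family in Kashmiri and 84.0% and 84.7% at D15 and D250 in Jersey. Jersey D90 was the exception, with 48.6% FABP5, 33.7% FABP4 and 17.5% FABP3. The family sum itself was lowest there, at 939 FPKM, against 10592 in Kashmiri D15. The other members of the family contributed little: FABP1 and FABP12 were listed at 0 in every group, and FABP9 was the highest of them at 3.82 FPKM in Kashmiri D90. In the SLC27 family SLC27A6 made up 83.8%, 18.9% and 58.0% in Kashmiri and 24.4%, 0.434% and 46.6% in Jersey, and SLC27A1 was the larger share in Kashmiri D90, Jersey D15 and Jersey D90.

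ACSL1 encodes a long-chain acyl-CoA synthetase and measured 28.1, 13.7 and 34.8 FPKM in Kashmiri and 16.9, 24.2 and 30.5 in Jersey. Its D90 value was the lowest of the 3 in Kashmiri, 2.05-fold below D15 and 2.54-fold below D250, and no comparison was past the limit. The Jersey difference of D250 over D90 (log2 ratio 0.32) became -0.08 when FPKM was rescaled to an equal sum.

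ACSL4 encodes the synthetase known for its preference for arachidonic acid. Its level was 7.16, 18.0 and 11.8 FPKM in Kashmiri and 17.2, 54.1 and 160.03 in Jersey. Jersey D250 was the single high group, 9.31-fold above Jersey D15 (log2 ratio 3.15) and 13.5-fold above Kashmiri D250 (log2 ratio 3.65). At D15 and D90 the Jersey levels were 2.40-fold and 3.00-fold those of Kashmiri. In Kashmiri, D90 was the highest day, and its lead over D250 (log2 ratio of D250 over D90 -0.57) changed sign when FPKM was rescaled to an equal sum. The share of ACSL4 in the ACSL family was 14.1%, 26.9% and 17.0% in Kashmiri and 22.1%, 37.6% and 64.4% in Jersey, while that of ACSL1 was 55.1%, 20.4% and 49.99% in Kashmiri and 21.6%, 16.8% and 12.3% in Jersey. ACSL5, another long-chain synthetase, was the largest share in Kashmiri D90 (41.4%), Jersey D15 (53.2%) and Jersey D90 (42.1%).

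The summed neutrophil markers were also highest in Jersey D250, though MMP9 was highest in Jersey D90 (70.1 FPKM, against 14.8 in Jersey D250), with 8 of 8 past the limit for Jersey over Kashmiri on each day and median log2 ratios of 3.58, 3.08 and 4.27. Per 100 FPKM of the neutrophil marker sum, ACSL4 was 4.01, 3.65 and 1.93 in Kashmiri and 0.359, 1.01 and 1.19 in Jersey. Per 100 FPKM of the macrophage marker sum it was 4.99, 3.38 and 2.19 in Kashmiri and 1.36, 2.24 and 5.52 in Jersey. Jersey D250 was the highest group for ACSL4 on the macrophage base and was not on the neutrophil base, and the part of either cell type in the level was not tested.

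ACBD3 encodes a Golgi protein that carries an acyl-CoA binding domain. It was the steadiest of the 10, at 8.20, 7.78 and 9.96 FPKM in Kashmiri and 7.22, 8.96 and 11.9 in Jersey. No log2 ratio exceeded 0.65 in size, and 4 of its 9 ratios changed sign under a rescaling. These were Kashmiri D90 over D15 (log2 ratio -0.07), Jersey D250 over D90 (0.37), and Jersey over Kashmiri at D15 (-0.16) and D250 (0.23).

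**Figure D4:**
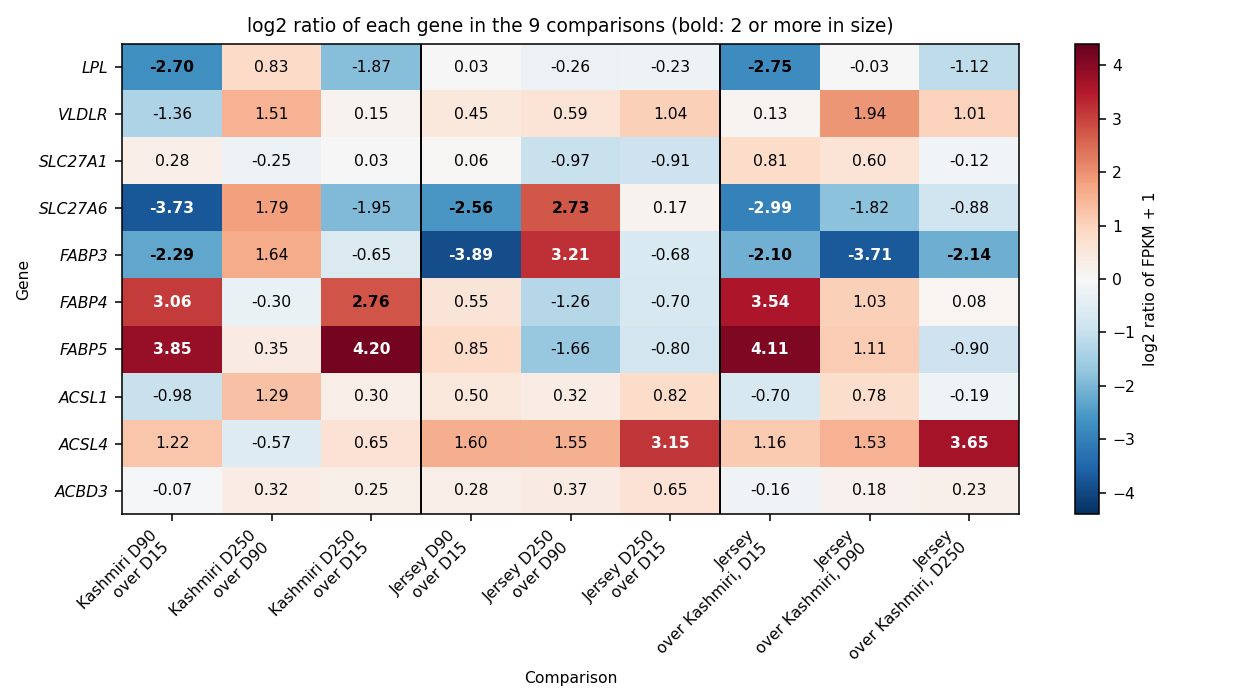
Heat map of the log2 ratio of FPKM + 1 for each of the 10 genes (rows) in the 9 comparisons (columns), red for higher and blue for lower, with ratios of 2 or more in size in bold. The columns for Kashmiri D90 over D15 and Jersey over Kashmiri at D15 each hold 5 bold values, and those values are of LPL, SLC27A6, FABP3, FABP4 and FABP5.

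The question of change through lactation was put to each breed in turn, and Kashmiri D90 against D15 held the most of these genes past the limit. There, 5 of the 10 were past it, FABP4 and FABP5 as higher and LPL, SLC27A6 and FABP3 as lower at D90, against 7.5% of 11297 genes considered (2.34% higher and 5.16% lower). With FPKM rescaled to an equal sum FABP3 lay inside the limit (log2 ratio -1.98) and 4 remained past it. The median log2 ratio of the 10 was -0.53, and that of all genes -0.01. From D90 to D250, 0 of the 10 were past the limit, against 1.98% of all genes (0.859% higher and 1.12% lower), and the median ratio was 0.59 beside 0.03. The largest ratios there were those of SLC27A6 (1.79), FABP3 (1.64), VLDLR (1.51) and ACSL1 (1.29), all higher at D250. Between D15 and D250, 2 of the 10, FABP4 and FABP5, were past the limit as higher, against 4.05% of all genes (1.85% higher and 2.2% lower), and SLC27A6 (-1.95) and LPL (-1.87) lay just inside it as lower.

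In Jersey, 2 of the 10 were past the limit for D90 over D15, SLC27A6 and FABP3, both lower, against 6.76% of all genes (2.98% higher and 3.78% lower). The same 2 genes were past it for D250 over D90, both higher, against 4.18% of all genes (3.72% higher and 0.466% lower). With FPKM rescaled to an equal sum FABP5 was also past it there, as lower (log2 ratio -2.07). For D250 over D15 only ACSL4 was past the limit, as higher, which is 1 of 10 against 12.6% of all genes (9.17% higher and 3.42% lower) and thus near the background. The medians of the 10 genes were 0.36, 0.35 and -0.03 for these 3 comparisons, beside -0.07, 0.15 and 0.07 for all genes.

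The breeds were compared on each day. At D15, 5 of the 10 were past the limit, FABP4 and FABP5 as higher and LPL, SLC27A6 and FABP3 as lower in Jersey, against 8.57% of 11202 genes considered (6.45% higher and 2.12% lower). After rescaling to an equal sum FABP3 had a log2 ratio of -1.71 here, which left 4. At D90 only FABP3 was past it, as lower in Jersey, and at D250 FABP3 was lower and ACSL4 higher. These counts of 1 and 2 of 10 stood beside 11.7% of all genes (6.58% higher and 5.17% lower) on the first of these days and 12.3% (10.9% higher and 1.37% lower) on the second, so that neither stood clear of the background. The medians of the 10 genes were -0.02, 0.69 and -0.15 at D15, D90 and D250, beside -0.13, -0.03 and -0.10 for all genes. The comparisons of D90 with D15 in Kashmiri and of the breeds at D15 share the Kashmiri D15 group, which for LPL, SLC27A6 and FABP3 was the highest and for FABP4 and FABP5 the lowest of the 6.

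**Figure D5:**
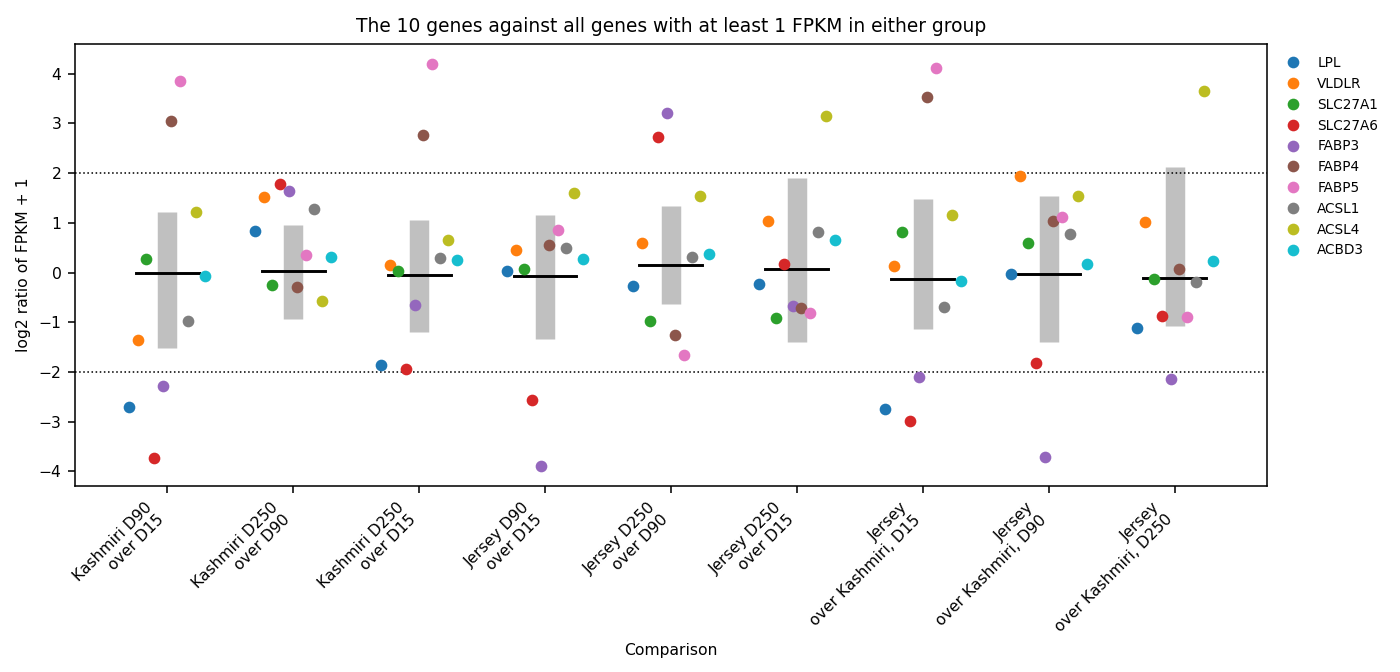
The log2 ratio of FPKM + 1 of the 10 genes (coloured points) in the 9 comparisons, over the 10th to 90th percentile (grey bar) and the median (black line) of all genes with at least 1 FPKM in either group. Dotted lines mark a ratio of 2 in size. In Kashmiri D90 over D15 the grey bar runs from -1.53 to 1.22, and 5 of the points lie beyond the dotted lines.

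The stage ratios of the breeds were set against each other as Jersey minus Kashmiri. For D90 over D15 the difference was 2.73 for LPL, -2.99 for FABP5 and -2.51 for FABP4. For D250 over D15 it was -5.00 for FABP5, -3.46 for FABP4, 2.49 for ACSL4 and 2.11 for SLC27A6. FABP3 had the same stage ratio in both breeds for D250 over D15 within 0.03 in the deposited FPKM, but the difference was -1.19 when FPKM was rescaled to an equal sum. The ratios had opposite signs in the breeds for 4 of the 10 genes for D90 over D15, for 3 for D250 over D90 and for 4 for D250 over D15, and whether the breeds differed could not be tested. With FPKM rescaled to an equal sum these counts were 3, 6 and 5, and with the upper quartile 3, 3 and 4. The share of all genes with opposite signs was not computed, so the counts cannot be read as particular to the 10 genes. Some rested on ratios near 0, such as those of ACBD3 for D90 over D15 (-0.07 in Kashmiri and 0.28 in Jersey).

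Of 51 other genes of the route, 43 were found, and 24 to 27 of them had at least 1 FPKM in a comparison. In Kashmiri 1, 0 and 2 of these were past the limit as higher for D90 over D15, D250 over D90 and D250 over D15, and none was lower. In Jersey 2, 1 and 2 were higher and 3, 2 and 3 lower. For Jersey over Kashmiri, 3, 1 and 1 were higher and 1, 2 and 0 lower at D15, D90 and D250. Both directions together, this was 3.85%, 0% and 7.41% of the pathway genes considered in Kashmiri, beside 7.5%, 1.98% and 4.05% of all genes. In Jersey it was 20.0%, 12% and 20.8%, beside 6.76%, 4.18% and 12.6%, and between the breeds 16.0%, 11.5% and 3.85%, beside 8.57%, 11.7% and 12.3%. The pathway medians ran from -0.68, for Jersey over Kashmiri at D250 (all genes -0.10), to 0.27, for Kashmiri D90 over D15 (all genes -0.01).

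Among genes of lipoprotein uptake, ANGPTL4, which encodes an inhibitor of lipoprotein lipase, was at 46.8, 37.6 and 7.86 FPKM in Jersey and at 10.1, 13.2 and 12.4 in Kashmiri. In Jersey D250 it was lower past the limit against both other days. LRP1, a lipoprotein receptor also known from macrophages, was at 2.68, 9.26 and 27.6 in Kashmiri and at 45.1, 42.8 and 64.5 in Jersey. It was past the limit for D250 over D15 in Kashmiri and for the breeds at D15 and D90. SORL1, a sorting receptor, was at 84.96 in Jersey D250, against 5.81 to 22.9 in the other groups. APOE, which encodes an apolipoprotein, was listed at 0 in Jersey D15 and at 463 to 4414 in the other groups, so no ratio is given. Without genes listed at 0, the counts above for Jersey D90 over D15 and D250 over D15 each held 1 fewer gene as higher, and that for the breeds at D15 held 1 fewer as lower.

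Among genes of binding and activation, CRABP2, which encodes a retinoic acid binding protein, was at 0.712 FPKM in Kashmiri D15 and at 3.50 to 8.92 in the other groups. FABP9 rested on low levels, at 0.0854 FPKM in Kashmiri D15 and 3.82 in Kashmiri D90. ACSS2 and ACSS1 encode the cytosolic and mitochondrial enzymes that activate acetate. ACSS2 was at 382, 105 and 376 in Kashmiri and at 113, 16.5 and 97.2 in Jersey, with D90 lowest in both breeds, as for FABP3. ACSS1 was at 185, 77.1 and 65.4 in Kashmiri and at 77.9, 16.0 and 17.1 in Jersey. Of the other fatty acid transport genes (7 found of 8), 3 to 5 could be considered in a comparison. Of the acyl-CoA binding genes (4 found of 5), 3 could be. SLC27A2, SLC27A3 and ACBD7 stayed under 1 FPKM in every group and could not pass. None of those considered was past the limit in any of the 9 comparisons, beside 1.98% to 12.6% of all genes. CAV1 came closest, with a log2 ratio of -1.99 for Jersey over Kashmiri at D250.

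Of 8 regulators of the route, 7 were found. PPARG, a nuclear receptor that governs fat storage and is known to act on FABP4 and LPL, was at 0.258, 6.02 and 8.81 FPKM in Kashmiri and at 5.25, 10.6 and 6.34 in Jersey. Kashmiri D15 was its low group, as it was for FABP4 and FABP5 and not for LPL. PPARD, a related receptor, was at 31.9, 39.1 and 172 in Jersey and at 11.5 to 17.0 in Kashmiri, and RXRA, the partner of these receptors, was at 56.6, 64.3 and 117 in Jersey and at 33.7, 8.44 and 20.2 in Kashmiri. Both were highest in Jersey D250, as was ACSL4. PPARA and SREBF1 were not past the limit in any comparison. PPARGC1A and THRSP were too low to pass it, with highest values of 0.515 and 1.45 FPKM, both in Kashmiri D250. Their plain ratios of Jersey D250 to D90 were 11.3 and 10.9, at levels under 1 FPKM, so whether they changed is not answered by the limit.

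The pattern of FABP3 over the 6 groups was shared by many genes. Among 5334 genes with a mean of at least 10 FPKM and no group at 0, 228 (4.27%) had a Pearson r of at least 0.9 with FABP3 on log2(FPKM + 1), and 114 (2.14%) one of at least 0.95. The 5 most alike were ZBTB47 (0.998), FXYD6 (0.996), PTHLH (0.996), ENSBTAG00000046547 (0.996) and PCBD1 (0.995). ZBTB47 was at 65.0, 16.9 and 47.4 FPKM in Kashmiri and at 20.0, 0.851 and 10.4 in Jersey. PTHLH, which encodes parathyroid hormone related protein, a hormone made by the lactating gland, was at 54.5, 11.1 and 29.4 in Kashmiri and at 15.4, 0.786 and 9.66 in Jersey. For 12 epithelial markers in this comparison the r with FABP3 ran from 0.64 (CDH1) to 0.98 (ELF5). The correlations rest on 6 values that share their libraries and are given as a description.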

How the data were processed

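RNA from milk epithelial cells (poly-A, stranded kit) was sequenced from 17 labelled samples in 6 groups of breed and day (the study's text describes 1 library more). Per the study's methods, the authors trimmed reads with Trimmomatic, aligned them to UMD3.1 with Bowtie (Bowtie2 in the processing notes) and TopHat, ran Cufflinks and Cuffdiff, and deposited 1 FPKM per gene and group. Whether counting used strand is not given in the sources used here. Columns named Local were taken as Kashmiri. Of 61264 entries, 25121 had a name. Where a name recurred, its entry of highest mean was taken. Ratios were log2(FPKM + 1), and 9 comparisons were made. With 1 value per group, no test, error or interval was possible. The 10 genes and the pathway, regulator and marker lists were chosen with earlier results of these data known.

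Named were all 10 genes, list genes past the limit (of which some are counted but not reported by name here), the 5 genes most like FABP3, and for each marker list the 3 highest genes and those at 0. Values per marker sum, and KRT18, CDH1, ESRP1 and the regulators not past the limit, were added after the values were seen. Alternatives were a pseudocount of 0.1 FPKM, a log2 limit of 1, no filter on low values, summed entries, and FPKM rescaled by the upper quartile or to an equal sum without 5 milk protein genes. The rule behind the calls was tested on simulated data, which checks only how the rule was applied. Whether the calls hold across cows was not tested. Sequences were not analysed here, nor were GPIHBP1, CD36, DBI and the other list names that were not found. The work used pandas 2.3.3 and numpy 2.4.6 in Python 3.11.15, with plots from matplotlib 3.10.9.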

Additional observations from a re-analysis of the deposited data

Results flagged for a closer look

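For FABP4 and FABP5 the stage ratio pointed in opposite directions in the 2 breeds, by over 1.5-fold in each. The log2 ratio of D250 over D15 was 2.76 in Kashmiri and -0.70 in Jersey for FABP4. For FABP5 it was 4.20 in Kashmiri and -0.80 in Jersey. With 1 value per group the difference was not tested. The macrophage marker sum was higher at D250 than at D15 in both breeds (143 to 539 FPKM in Kashmiri, 1265 to 2897 in Jersey). In Kashmiri 11 of 11 considered macrophage markers were higher at D250, and in Jersey 6 were higher and 5 lower, among them C1QA, C1QB and C1QC past the limit as lower. Their part in the ratios was not tested.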

How the results depend on the processing

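The counts of the 10 genes past the limit stayed within 1.5 times in all 9 comparisons under scaling by the upper quartile, without a filter on low values and with repeated entries summed. With a pseudocount of 0.1 FPKM, Kashmiri D250 over D90 held 1 gene in place of 0, and Jersey over Kashmiri at D90 held 3 in place of 1. SLC27A6 also entered the calls for Kashmiri D250 over D15 as lower (log2 ratio -2.02). With FPKM rescaled to an equal sum, Kashmiri D250 over D90 held 3 genes and Jersey over Kashmiri at D90 held 2. FABP5 entered the calls for Jersey D250 over D90 as lower (log2 ratio -2.07). FABP3 left the calls for Kashmiri D90 over D15 and for the breeds at D15, which then held 4 genes each. With a log2 limit of 1, the counts were 4 for Kashmiri D250 over D90, 4 for Kashmiri D250 over D15, 5 for Jersey D250 over D90, 2 for Jersey D250 over D15, and 6 and 4 for Jersey over Kashmiri at D90 and D250. The median log2 ratio of the 10 genes moved only under the equal sum, to 1.28 for Kashmiri D250 over D90, 1.10 for Kashmiri D250 over D15 and -0.86 for Jersey over Kashmiri at D250, as the median of all genes also shifted. Of the 90 single ratios, 30 moved by over 0.58 under the equal sum and 3 under the pseudocount of 0.1. Added after the values were seen, the same alternatives moved 20 and 2 of the 30 breed differences of a stage ratio, and leaving out genes listed at 0 kept the pathway counts, both directions together, within 1.5 times. No paired analysis was possible because the table holds 1 value per group, which also prevented leaving out single cows. The read counts that the study lists are not tied to breed and day. The precision of low values such as SLC27A6 in Jersey D90 therefore cannot be given.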
